A study of Mus musculus with 9 samples.

Results

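The NR4A orphan nuclear receptors and the immediate early genes of neuronal activity were followed here as a set of 10 genes, Nr4a1, Nr4a2, Nr4a3, Fos, Fosb, Junb, Arc, Egr1, Egr2 and Npas4, in the brain of obese and lean mice. Each gene was taken by its symbol in the platform annotation. Each symbol had 1 probe set, so the set held 10 of the 22206 probe sets, or 10 of the 19505 named genes. The set was chosen by family and function with results of these arrays in view, among them the lower log2 signal of Nr4a2 in ob/ob mice given the extract than in those given vehicle, so that contrast is described for the 10 genes without a p-value.

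The 3 groups of mice had each been profiled on 3 Clariom S arrays for mouse genes. The first group was male ob/ob mice, which lack functional leptin, of the line C57BL/6JHamSlc-ob/ob, given VE, an extract of Vigna umbellata, by gavage at 100 mg/kg for 42 days. The second was male C57BL/6JHamSlc-ob/ob mice given vehicle for the same time, and the last was male C57BL/6JHamSlc-+/+ mice, the lean wild type, given vehicle. All mice were 6 weeks old when bought, had 1 week to settle in, ate standard chow, and were put under isoflurane at the end for the drawing of blood. The series title and the sample labels give the tissue as brain, without naming a region, whereas the design text states that the hybridized samples came from WAT. The labels were followed here, so every value below is called brain on their word. The design text also lists a dose of 50 mg/kg and gives 3 mice per group. No label says which array came from which animal beyond a replicate number.

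NR4A receptors are nuclear receptors whose genes, like those of the FOS, JUN and EGR transcription factors, are switched on within minutes of calcium or cyclic AMP signals and need no new protein for it. CREB bound to cyclic AMP response elements and the serum response factor with its partners are the main activators of these promoters, and the messages are short lived. In the brain the transcripts are used as a record of recent neuronal firing, and Nr4a2 has in addition a lasting role in midbrain dopamine neurons and a steady expression in the claustrum and deep cortex of rodents.

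The promoters of 4 of the genes are printed here because the 3 NR4A genes and Fosb share a short cyclic AMP response motif, TGACG, while their levels differed in how they moved. Each sequence is the 250 bases before the annotated transcription start in RefSeq on GRCm38.p6, read 5′ to 3′ on the strand of the gene, and capitals mark TGACG or its reverse complement CGTCA. The windows lie at chr2:57124004-57124253 on the minus strand for Nr4a2, chr4:48045055-48045304 on the plus strand for Nr4a3, chr15:101266596-101266845 on the plus strand for Nr4a1 and chr7:19310046-19310295 on the minus strand for Fosb.
Nr4a2: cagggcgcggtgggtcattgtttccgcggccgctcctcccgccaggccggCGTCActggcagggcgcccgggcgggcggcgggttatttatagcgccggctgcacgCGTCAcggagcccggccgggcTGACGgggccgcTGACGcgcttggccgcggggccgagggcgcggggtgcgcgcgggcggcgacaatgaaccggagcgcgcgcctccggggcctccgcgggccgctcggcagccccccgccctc
Nr4a3: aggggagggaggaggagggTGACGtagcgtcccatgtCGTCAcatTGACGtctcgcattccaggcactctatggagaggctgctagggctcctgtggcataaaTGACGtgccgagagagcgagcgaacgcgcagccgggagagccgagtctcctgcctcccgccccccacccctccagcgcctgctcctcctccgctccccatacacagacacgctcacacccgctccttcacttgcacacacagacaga
Nr4a1: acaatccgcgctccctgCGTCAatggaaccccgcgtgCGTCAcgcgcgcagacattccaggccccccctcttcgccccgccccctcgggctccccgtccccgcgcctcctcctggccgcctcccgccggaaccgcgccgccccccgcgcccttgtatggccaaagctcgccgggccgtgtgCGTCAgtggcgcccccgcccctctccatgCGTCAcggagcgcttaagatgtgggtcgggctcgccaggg
Fosb: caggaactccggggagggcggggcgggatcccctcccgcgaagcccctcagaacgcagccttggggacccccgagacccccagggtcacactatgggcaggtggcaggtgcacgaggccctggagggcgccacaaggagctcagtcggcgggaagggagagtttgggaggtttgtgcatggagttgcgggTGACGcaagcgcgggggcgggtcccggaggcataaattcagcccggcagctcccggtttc

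TGACG was searched on both strands in these windows, along with its palindromic full form TGACGTCA, which contains TGACG once on each strand, the EGR motif GCGNGGGCG and the CArG box of the serum response factor. RefSeq windows were at hand for 8 of the 10 genes. Nr4a1, Nr4a2 and Nr4a3 each held 4 matches to TGACG. At least 4 were found in 0.137% of the 32851 windows of all genes, at least 2 in 3.9% and at least 1 in 17.8%. Fos and Npas4 held 2 each, Fosb and Junb 1 each, and Egr2, which has 5 annotated starts, held 2 in 3 of its 5 windows, which overlap in part. So all 8 genes had the short motif in at least 1 window.

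The match farthest from the start stood 200 bases upstream in Nr4a2, 231 in Nr4a3 and 233 in Nr4a1, counted to the match's first base on the gene's strand. In Nr4a1 all 4 matches lay on the opposite strand, while Nr4a2 had 2 on each strand and Nr4a3 had 1 of 4 on the opposite strand. The full form TGACGTCA was in 0 of the 8 genes and in 1.55% of all windows. GCGNGGGCG was in Nr4a1, Nr4a2 and Fosb and in 4.7% of all windows, and the CArG box was in 4 windows of Egr2 and in 1.47% of all windows. These matches are letters in a window, and no binding was measured.

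**Figure D1:**
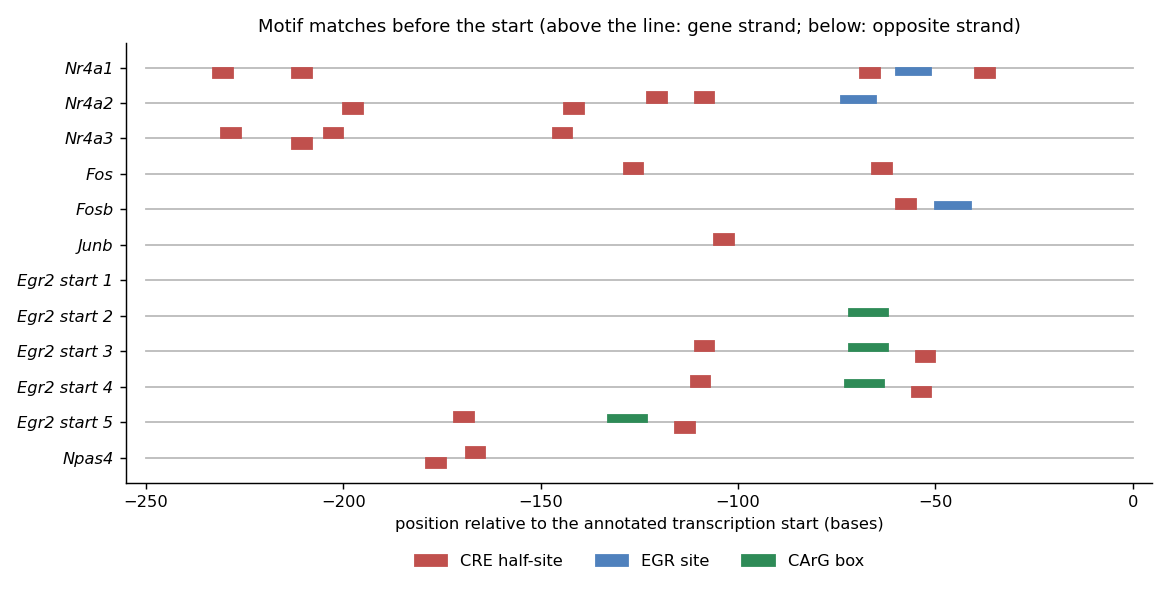
Positions of motif matches in the 250 bases before each annotated transcription start of 8 of the 10 genes, in bases relative to the start on the x axis, with 1 line per start, matches on the gene's strand above it and on the opposite strand below it. The 3 NR4A genes carry 4 matches to the short cyclic AMP response motif each, against 0 to 2 in the windows of the other 5 genes.

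Among the receptors, Nr4a2 and Nr4a3 were lower in the brains of VE-treated ob/ob mice than in those of either vehicle group, and Nr4a1 was not. Values below are deposited log2 signals, on which 1 unit is a doubling, and differences are in log2 units. Nr4a2, the receptor needed for the formation and upkeep of midbrain dopamine neurons, had 11.39, 11.03 and 10.61 in ob/ob VE brains, 12.67, 12.99 and 12.83 in ob/ob vehicle brains, and 12.16, 13.08 and 12.69 in wild-type brains. The highest VE array was below the lowest array of both vehicle groups. Nr4a2 averaged 11.01 ± 0.390 in VE brains, 12.83 ± 0.160 in ob/ob vehicle brains and 12.64 ± 0.462 in wild-type brains (SD, n = 3 each). The change from ob/ob vehicle was -1.82 (SE 0.267), a 3.53-fold lower signal and the 6th largest fall of the 22206 probe sets.

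Nr4a3, a close relative that binds the same DNA response element, had 12.16, 12.38 and 12.29 in ob/ob VE brains, 14.11, 13.51 and 13.57 in ob/ob vehicle brains, and 13.40, 14.89 and 14.39 in wild-type brains. The 3 VE arrays lay within a narrow band, and all vehicle arrays stood at least 1 unit above them. The means were 12.28 ± 0.111 in VE brains, 13.73 ± 0.331 in ob/ob vehicle brains and 14.23 ± 0.758 in wild-type brains (SD, n = 3 each). Nr4a3 was lower than in ob/ob vehicle brains by 2.74-fold, a change of -1.45 (SE 0.320).

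Nr4a1, the member of the family best known in immune cells and liver as well as in brain, had 9.33, 9.62 and 9.43 in VE brains, 9.83, 8.51 and 9.28 in ob/ob vehicle brains, and 9.51, 9.37 and 9.41 in wild-type brains. The VE arrays fell inside the range of the ob/ob vehicle arrays, and the change was 0.25 (SE 0.281), which turned to -0.10 without ob/ob vehicle array 2, the lowest of the 9. The promoter window of Nr4a1 held as many matches to the short motif as those of Nr4a2 and Nr4a3. In bulk tissue a lower signal can come from fewer cells of a kind or from less RNA in each cell, and these arrays cannot tell them apart.

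**Figure D2:**
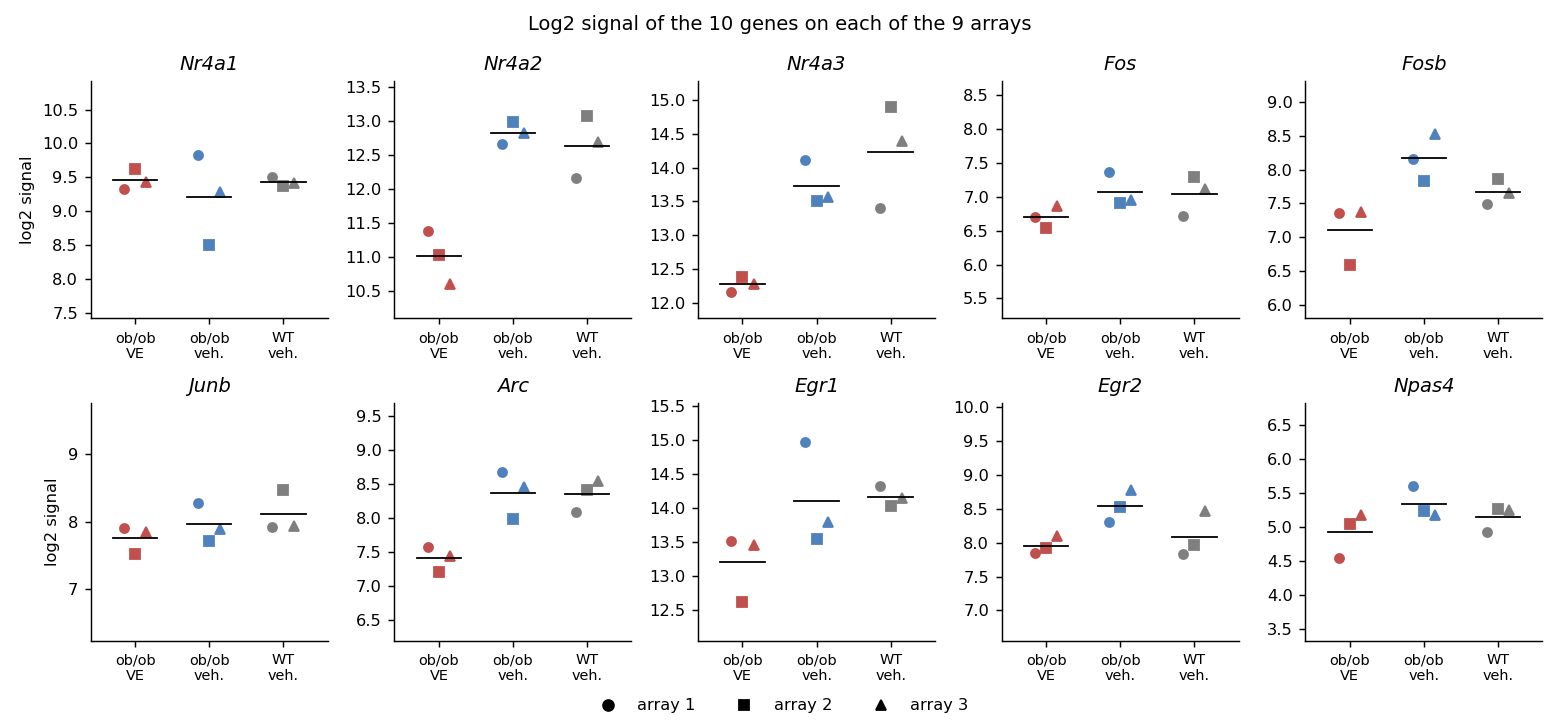
Log2 signal of each of the 10 genes (y axis) on each array, with ob/ob VE left, ob/ob vehicle in the middle and wild type right; symbols give the array number, bars the group means, and all panels span an equal number of log2 units. The VE arrays of Nr4a2 (10.61 to 11.39) and Nr4a3 (12.16 to 12.38) lie apart from the 6 vehicle arrays, and those of Nr4a1 do not.

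Fos, Fosb and Junb encode proteins that pair up as the AP-1 transcription factor, and of these 3 genes Fosb showed the largest difference and Junb the smallest. Fosb had 7.36, 6.59 and 7.38 in ob/ob VE brains, 8.15, 7.83 and 8.52 in ob/ob vehicle brains, and 7.49, 7.86 and 7.66 in wild-type brains. The VE arrays lay below both vehicle groups, and the ob/ob vehicle mean was the highest of the 3. The Fosb change from ob/ob vehicle was -1.06 (SE 0.260) and was -0.80 without VE array 2, its lowest array. Fos, the classical activity marker, had 6.70, 6.54 and 6.87 in VE brains, 7.37, 6.90 and 6.95 in ob/ob vehicle brains, and 6.71, 7.29 and 7.12 in wild-type brains. Its VE and ob/ob vehicle arrays were parted by 0.03 units, less than the spread within either group, and the change was -0.37 (SE 0.223), or -0.22 without ob/ob vehicle array 1. Junb, an AP-1 partner of the FOS proteins, ranged over 7.52 to 7.91 in VE brains, 7.71 to 8.27 in ob/ob vehicle brains and 7.92 to 8.47 in wild-type brains, with a change of -0.20 (SE 0.232) from ob/ob vehicle and groups that overlapped. The Junb change was -0.04 without ob/ob vehicle array 1 and -0.08 without VE array 2.

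Arc, an effector gene whose protein acts at synapses in the removal of AMPA receptors, was lower on every VE array. Arc had 7.57, 7.20 and 7.44 in ob/ob VE brains, 8.68, 7.98 and 8.45 in ob/ob vehicle brains, and 8.09, 8.41 and 8.55 in wild-type brains. Both vehicle groups averaged about the same, at 8.37 ± 0.357 in ob/ob vehicle and 8.35 ± 0.236 in wild type, with 7.40 ± 0.188 in VE brains (SD, n = 3 each). The Arc change from ob/ob vehicle was -0.97 (SE 0.231), or 1.95-fold lower, and -0.86 without VE array 2.

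Egr1, a zinc-finger factor induced by synaptic activity, had 13.52, 12.62 and 13.46 in ob/ob VE brains, 14.97, 13.55 and 13.79 in ob/ob vehicle brains, and 14.32, 14.03 and 14.15 in wild-type brains. Only 0.03 units parted the highest VE from the lowest ob/ob vehicle array, and the gap to wild type was wider. The Egr1 change from ob/ob vehicle was -0.90 (SE 0.344), and it was -0.47 without ob/ob vehicle array 1 and -0.61 without VE array 2. Egr2, known best for its roles in hindbrain patterning and in myelination by Schwann cells, had 7.85, 7.92 and 8.09 in VE brains, 8.30, 8.52 and 8.78 in ob/ob vehicle brains, and 7.83, 7.96 and 8.47 in wild-type brains. For Egr2 the VE arrays lay below the ob/ob vehicle arrays and among the wild-type arrays, with a change from ob/ob vehicle of -0.58 (SE 0.224).

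Npas4 is a factor that answers neuronal calcium entry and shapes inhibitory synapses. Its signals were 4.54, 5.04 and 5.18 in VE brains, 5.61, 5.24 and 5.17 in ob/ob vehicle brains, and 4.92, 5.27 and 5.25 in wild-type brains. The groups overlapped, and the Npas4 change from ob/ob vehicle was -0.42 (SE 0.229), or -0.23 without VE array 1. Npas4 and Fos had mean signals below 7.13, the median of all probe sets, and the other 8 genes were above it.

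Counted together, 9 of the 10 genes were below their ob/ob vehicle mean in VE brains and 7 did not overlap with it (Nr4a2, Nr4a3, Fos, Fosb, Arc, Egr1 and Egr2). Of all probe sets, 58.0% were below 0 in that comparison and 11.9% were lower without overlap. The median change of the 10 genes was -0.74, beside -0.07 for all probe sets. By limma (adjusted p under 0.05, the threshold of every call here) 1 gene, Nr4a2, was called lower, beside 0.473% of all probe sets called lower and 0.486% called in either direction, and since this contrast helped to choose the genes nothing is read from the count. The call of Nr4a2 ended without any 1 of the ob/ob vehicle arrays and without wild-type array 2 or 3, with changes of -1.90 to -1.74. Quantile normalization left the same 9 genes lower, with a median of -0.66, and so did centring each array and cyclic loess, each with a median of -0.62.

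**Figure D3:**
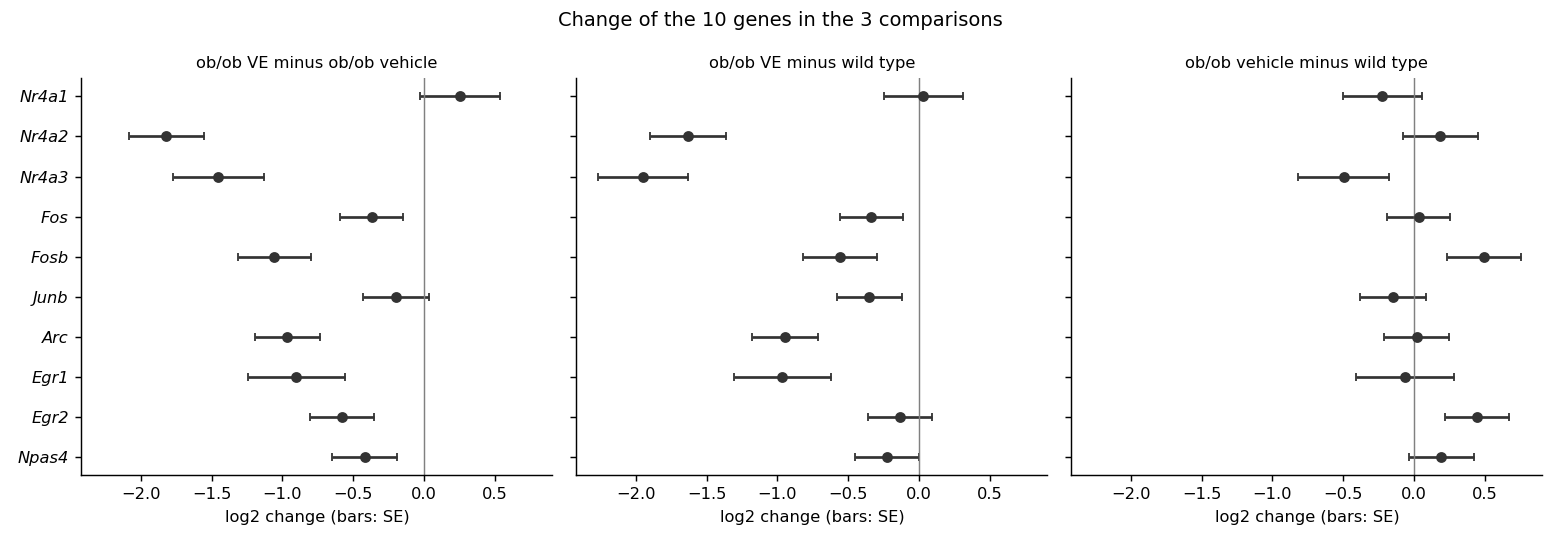
Change of each of the 10 genes in log2 units (x axis) with its SE from the limma fit as a bar, for ob/ob VE minus ob/ob vehicle, ob/ob VE minus wild type and ob/ob vehicle minus wild type. Nr4a2 and Nr4a3 lie far below 0 in both comparisons that hold VE, at -1.82 and -1.45 and at -1.63 and -1.95, and all 10 genes lie within 0.50 units of 0 in ob/ob vehicle minus wild type.

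The comparison of vehicle-treated ob/ob with wild-type brain asks how these genes stand in obese mice without functional leptin. Obesity and the loss of leptin cannot be told apart in it. By limma 0 of the 10 were called. At unadjusted p under 0.05 there were likewise 0, and 0 of the 10 were free of overlap. Of all probe sets, 1.27% were called by limma in either direction. At unadjusted p under 0.05, 10.2% were lower and 9.88% higher, and 17.5% were lower and 15.8% higher without overlap. The differences ran between -0.50 for Nr4a3 (SE 0.320, limma adjusted p 0.404, n = 3 each) and 0.50 for Fosb (SE 0.260, limma adjusted p 0.302, n = 3 each), with a median of 0.03 beside 0.02 for all probe sets. The Nr4a3 difference was -0.91 without wild-type array 1 and -0.17 without wild-type array 2, and that of Fosb was 0.32 without ob/ob vehicle array 3. Egr2 was 0.45 higher in ob/ob vehicle brains (SE 0.224, limma adjusted p 0.282, n = 3 each). For Arc the difference was 0.02 (SE 0.231), for Fos 0.03 (SE 0.223) and for Nr4a2 0.19 (SE 0.267), all at limma adjusted p of 0.725 or more. A p that misses the threshold does not show equal levels.

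Set against wild type, VE-treated ob/ob brains had 2 of the 10 genes called, both lower, beside 0.0991% of all probe sets called lower. These groups differ in genotype and in treatment, and no wild-type mice were given VE. Genotype and extract cannot be told apart in this comparison. By limma 0 probe sets were called higher, with 2.98% higher at unadjusted p under 0.05. The VE arrays here are the same as in the contrast that helped to choose the genes, so the calls are no independent support for it. The signal of Nr4a2 was 3.10-fold lower, a change of -1.63 (SE 0.267), and that of Nr4a3 3.86-fold lower, a change of -1.95 (SE 0.320), each at a limma adjusted p of 0.0472 with 3 arrays a group. Both were lower on 3 of 3 VE arrays than on any wild-type array. Their ranks among the falls of all 22206 probe sets were 31 for Nr4a2 and 8 for Nr4a3.

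The calls of Nr4a2 and Nr4a3 against wild type stood near the threshold. Limma adjusted p was 0.191 for both without VE array 3, 0.269 without wild-type array 2, and 0.314 for Nr4a2 and 0.315 for Nr4a3 without wild-type array 3. It was 0.0876, 0.113 and 0.120 for both without ob/ob vehicle arrays 1, 2 and 3, which hold neither group but enter the shared estimate of spread. Without VE array 2 it was 0.0200 for Nr4a2 and 0.0178 for Nr4a3, with changes of -1.64 and -2.0. Over all 19 alternatives the change stayed between -2.01 and -1.28 for Nr4a2 and between -2.36 and -1.47 for Nr4a3, and 6 of the 19 called each.

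The other 8 genes were not called against wild type. Arc was lower by a change of -0.95 (SE 0.231, limma adjusted p 0.144, n = 3 each) and Egr1 by -0.97 (SE 0.344, limma adjusted p 0.286, n = 3 each), and neither overlapped with wild type. Fosb, at -0.56 (SE 0.260, limma adjusted p 0.411, n = 3 each), was at -0.30 without VE array 2, and Junb was at -0.35 (SE 0.232), or -0.17 without wild-type array 2. Egr2 was at -0.13 (SE 0.224), so that the gap seen against ob/ob vehicle was not there against wild type. In all, 4 of the 10 genes were lower at unadjusted p under 0.05, beside 9.21% of all probe sets, and 6 were lower without overlap, beside 11.5%, and the median was -0.46 beside -0.07. Without VE array 2 that median was -0.29, beside 0.0017 for all probe sets. In a fit of the probe sets above the median level, the 8 genes tested had a median of -0.75, beside -0.23 for those probe sets. The differences of VE from the 2 vehicle groups share the VE arrays and are set side by side only.

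**Figure D4:**
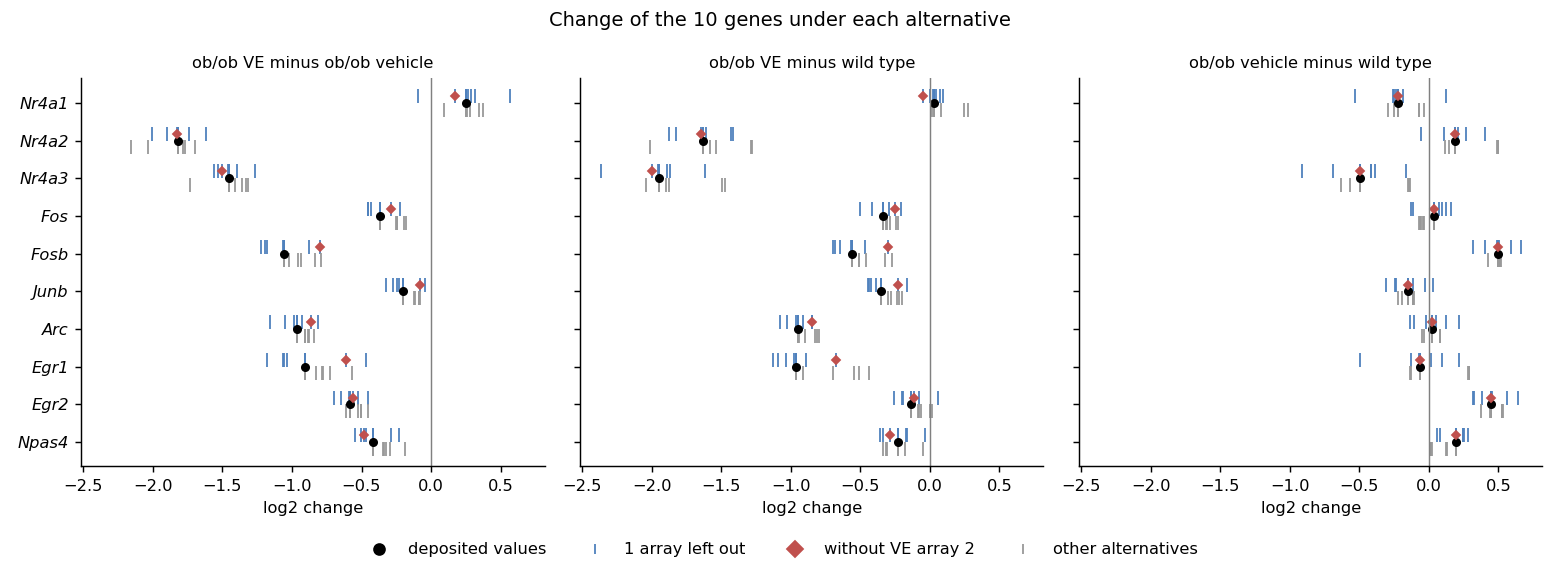
Change of each of the 10 genes in log2 units (x axis) with the deposited values (black), with each array left out in turn (blue), without VE array 2 (red) and under the other alternatives (grey), in the 3 comparisons. Nr4a2 and Nr4a3 stay below -1.2 in both comparisons that hold VE, while Nr4a1 lies on both sides of 0.

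VE array 2 stood apart from the other arrays. Its correlation with the other 8 was 0.962 to 0.970, against 0.979 to 0.993 among those 8, and its highest signal was 16.37, against 19.01 to 19.93. It held the lowest VE value of 5 of the 10 genes. Without it 9 of the 10 genes were still below ob/ob vehicle, with Nr4a2 at -1.83 and Nr4a3 at -1.50. Of the 10, 2 were called there in place of 1. Nothing is read from either count, since this contrast helped to choose the genes. The number of probe sets called for VE against ob/ob vehicle was 108, as 3 higher and 105 lower. It was 403 without VE array 2, as 122 higher and 281 lower, and the split was 60 and 264 with quantile normalization and 65 and 311 with cyclic loess.

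Within groups the genes did not keep 1 order of arrays. Of the ob/ob vehicle arrays, number 1 was the highest for 7 genes and number 2 the lowest for 7, and wild-type array 1 was the lowest for 8 genes. With the group means removed, the correlation over the 9 arrays was 0.83 for Fos with Junb, 0.85 for Fos with Nr4a3, 0.76 for Fos with Arc and 0.68 for Arc with Egr1. For Nr4a2 it was 0.53 with Nr4a3, 0.16 with Arc and -0.36 with Nr4a1. These values describe the same 9 arrays, VE array 2 with its narrower range of signals among them, and no p is given.

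The pattern of Nr4a2 over the 9 arrays was most like that of Phxr4 (Pearson r = 0.945), Gpr161 (r = 0.932), Dhx33 (r = 0.922), Tmem39b (r = 0.920) and Pkp2 (r = 0.912), out of 6262 genes of sufficient signal and spread. For the mean of the 10 genes the leading patterns were Vegfa, an angiogenic growth factor (r = 0.962), Olfr477 (r = 0.943), Ammecr1l (r = 0.920), Btbd9 (r = 0.907) and Trpc4, a cation channel gene (r = 0.902). Vegfa averaged 11.92 ± 0.297 in VE brains, 12.81 ± 0.216 in ob/ob vehicle brains and 12.65 ± 0.390 in wild-type brains (SD, n = 3 each). Its change from ob/ob vehicle was -0.89 (SE 0.246, limma adjusted p 0.123). All 10 of these genes were picked as the highest of 6262 correlations over these same 9 arrays. Their r values are therefore high by choice, and the change of Vegfa is no independent support.

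Other rapid immediate early genes, from further KLF, EGR and AP-1 factors to dual-specificity phosphatases, had a median close to that of all probe sets. Of 33 measured, 18 were below 0 in VE against ob/ob vehicle with a median of -0.05, beside -0.07 for all probe sets. By limma 0 were called, and 3 were lower and 0 higher at unadjusted p under 0.05, beside 10.1% lower and 3.21% higher of all probe sets. Egr3 and Egr4, the remaining members of the EGR family, differed by -0.29 (limma adjusted p 0.720) and -0.20 (limma adjusted p 0.764). Jun differed by -0.23 (limma adjusted p 0.773), and Jund by 0.32 (limma adjusted p 0.574). Myc, a growth regulator, had the most negative difference on the list at -1.08 (limma adjusted p 0.0824). Dusp1, Dusp5 and Dusp6, the phosphatase genes of the list, differed by -0.58, -0.51 and -0.49 (limma adjusted p 0.388, 0.308 and 0.377). The most positive difference was that of Klf6, at 0.59 (limma adjusted p 0.377). All genes named in this paragraph were chosen after their values were seen.

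In ob/ob vehicle against wild-type brain 1 gene of that list was called, Klf10, a TGF-beta-induced zinc-finger factor, which fell by 1.12 (limma adjusted p 0.0497, 3 arrays each), beside 0.73% of all probe sets called lower. Its call ended without any 1 of the ob/ob vehicle or wild-type arrays (limma adjusted p 0.0561 to 0.203) and without VE array 3. Against wild type, 0 of the 33 were called in VE brains by limma, with 7 lower and 0 higher at unadjusted p under 0.05, beside 9.21% lower and 2.98% higher of all probe sets. The median was -0.16, beside -0.07 for all probe sets.

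Delayed activity-induced genes follow the first wave and encode growth factors, neuropeptides and signal regulators. Of 19 measured, 0 were called in VE against ob/ob vehicle by limma, with a median of -0.09. At unadjusted p under 0.05, 3 were higher and 1 was lower, beside 3.21% higher and 10.1% lower of all probe sets. The higher ones were Rgs2, Penk and Tac1, and Penk and Tac1 are also on the striatal list below. Bdnf, the neurotrophin, differed by -0.18 (limma adjusted p 0.859). Rgs2, a regulator of G-protein signals, had 7.47, 6.73 and 7.68 in VE brains, 6.28, 6.35 and 6.29 in ob/ob vehicle brains, and 7.91, 7.18 and 7.54 in wild-type brains. Rgs2 fell by 1.24 in ob/ob vehicle against wild-type brains (limma adjusted p 0.0462), and it was 0.99 higher in VE than in ob/ob vehicle brains (limma adjusted p 0.111). The lowest Rgs2 values were thus those of ob/ob vehicle brains, and the lowest Nr4a2 values were those of VE brains.

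Genes of the activators upstream included those of CREB, its coactivators, the serum response factor and calcium-dependent kinases. Of 27 measured, 0 were called in VE against ob/ob vehicle by limma, with a median of -0.19. At unadjusted p under 0.05, 1 was higher and 3 were lower, beside 3.21% higher and 10.1% lower of all probe sets. Creb1 differed by -0.13 (limma adjusted p 0.850) and Srf by -0.20 (limma adjusted p 0.785). In VE against wild type 0 of the 27 were called by limma, and the median was -0.44, beside -0.07 for all probe sets. At unadjusted p under 0.05, 12 were lower and 0 higher there, beside 9.21% lower and 2.98% higher of all probe sets. In ob/ob vehicle against wild type 4 were lower and 0 higher, beside 10.2% and 9.88%, with a median of -0.35. Of the 27 genes 25 were above the median level. Probe sets above that level had medians of -0.23 in VE and -0.21 in ob/ob vehicle against wild type. Crtc1, a coactivator of CREB in neurons, was the 1 gene of the list called in ob/ob vehicle against wild type. There it fell by 1.04 (limma adjusted p 0.0422), beside 0.73% of all probe sets called lower. Crtc1 had 11.91, 11.51 and 11.62 in VE brains, 11.50, 11.84 and 11.23 in ob/ob vehicle brains, and 12.56, 12.43 and 12.70 in wild-type brains. Its VE and ob/ob vehicle arrays overlapped. The calls of Rgs2 and Crtc1 ended without any 1 of the ob/ob vehicle or wild-type arrays, at limma adjusted p 0.0850 to 0.203, and without VE array 3.

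Partners and corepressors of these factors had 0 of 12 called in any of the 3 comparisons by limma, with 1, 3 and 1 lower and 0 higher at unadjusted p under 0.05 in VE against ob/ob vehicle, ob/ob vehicle against wild type and VE against wild type. Of all probe sets, 10.1%, 10.2% and 9.21% were lower in the same order, and 3.21%, 9.88% and 2.98% higher. Rxrb, a retinoid X receptor, of a family that pairs with some NR4A proteins, was 0.36 higher in VE than in ob/ob vehicle brains (limma adjusted p 0.529), and Arnt, which dimerizes with NPAS4, was at -0.55 (limma adjusted p 0.284). Of 39 other nuclear receptors 0 were called in VE against ob/ob vehicle by limma, with a median of 0.05. At unadjusted p under 0.05, 1 was higher and 6 were lower, beside 3.21% higher and 10.1% lower of all probe sets. Rara, a retinoic acid receptor, was called in ob/ob vehicle against wild type, where it fell by 1.05 (limma adjusted p 0.0463), a call that likewise ended without any 1 ob/ob vehicle or wild-type array.

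A list of genes linked to NR4A2 in dopamine neurons, not all of them its targets, was measured in full. By limma 0 of its 11 genes were called in any of the 3 comparisons. Drd2 is on this list and also on the striatal list below. At unadjusted p under 0.05, 2 were higher and 1 lower in VE against ob/ob vehicle, 1 higher and 1 lower in ob/ob vehicle against wild type, and 1 higher and 0 lower in VE against wild type. Of all probe sets, 3.21%, 9.88% and 2.98% were higher in the same order, and 10.1%, 10.2% and 9.21% lower. The median for VE against ob/ob vehicle was -0.09. Th, the enzyme that begins dopamine synthesis, had 6.27, 5.68 and 6.70 in VE brains, 6.60, 6.17 and 6.65 in ob/ob vehicle brains, and 6.33, 6.59 and 5.95 in wild-type brains. The Th groups overlapped. Slc6a3, the dopamine transporter gene, differed by -0.09 (limma adjusted p 0.906) and Slc18a2, the vesicular monoamine transporter gene, by -0.60 (limma adjusted p 0.287). Aldh1a1, a retinaldehyde dehydrogenase of a group of dopamine neurons, was 0.69 higher (limma adjusted p 0.161). Of these 11 genes 9 had mean signals below the median of all probe sets.

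**Figure D5:**
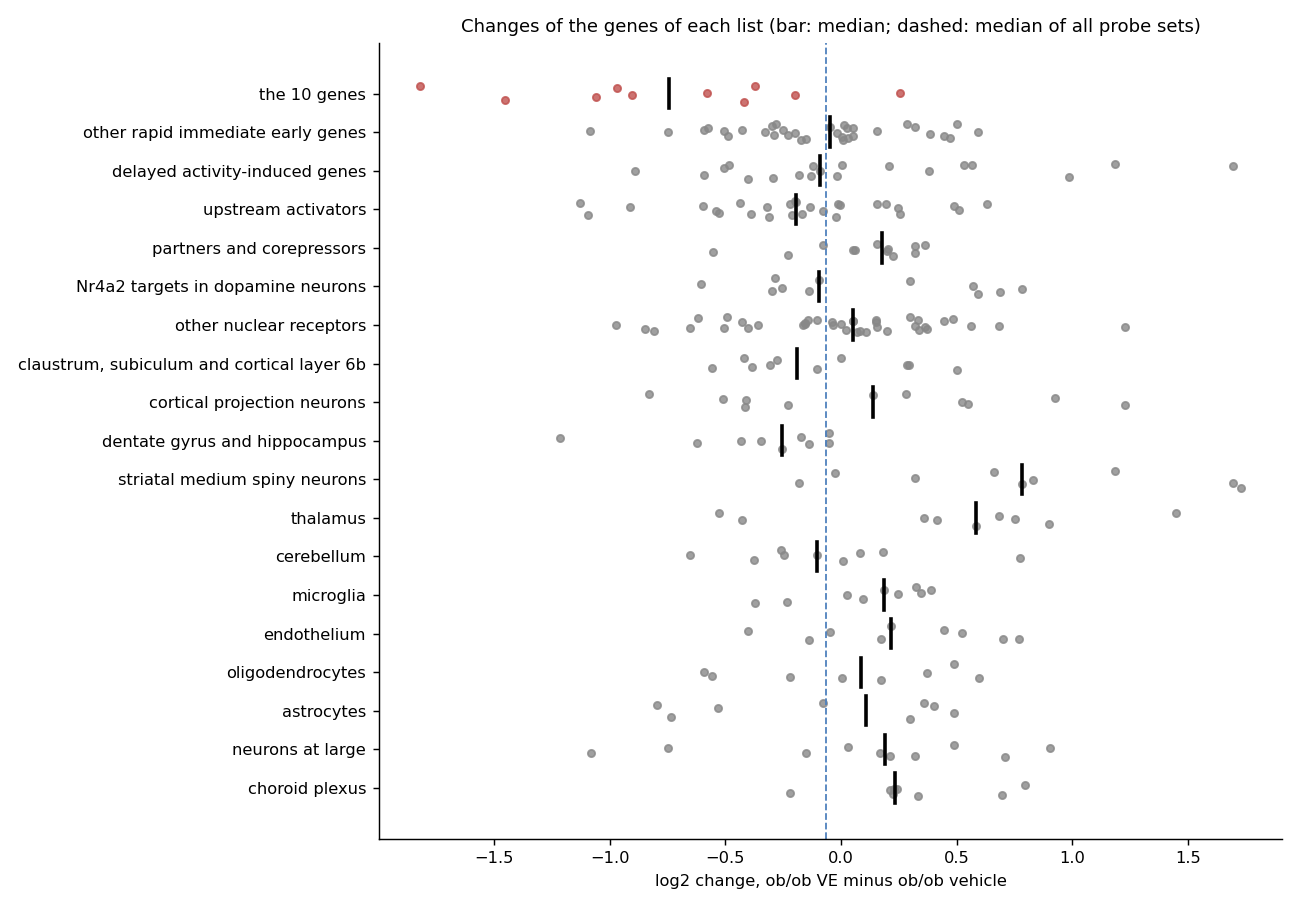
Log2 change in ob/ob VE minus ob/ob vehicle (x axis) of each gene of the set and of each other list (rows), with the list's median as a black bar and the median of all probe sets as a dashed line. The 10 genes have a median of -0.74, and the 18 other lists have medians between -0.25 (dentate gyrus and hippocampus) and 0.78 (striatum).

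Markers of brain regions bear on the set, since Nr4a2 and Arc differ in level among regions. By limma 0 of the 109 region and cell type markers of 12 lists were called in VE against ob/ob vehicle, with 17 higher (15.6%) and 4 lower (3.67%) at unadjusted p under 0.05, beside 3.21% higher and 10.1% lower of all probe sets. That 0 depended on the setting. Rorb and Tcf7l2, higher by 1.23 and 1.45 (limma adjusted p 0.0621 and 0.0592), were each called in 8 of 19 alternatives. Rgs9 was called higher in 5 of them, and Cldn5 and Gad2 in 4 each, while Prox1 was called lower in 1. Without VE array 2 the changes were 1.56 for Rorb, 2.40 for Rgs9 and 0.97 for Gad2. Not all markers were run under the alternatives. The claustrum, subiculum and layer 6b list, where Nr4a2 is a marker, had 6 of 10 measured genes below 0 with a median of -0.19. Its mean log2 signal was 7.82 to 8.48 in VE brains, 8.22 to 8.38 in ob/ob vehicle brains and 8.14 to 8.49 in wild-type brains. The hippocampal list had 9 of 9 measured genes below 0 with a median of -0.25, and its mean was 7.81 to 8.01 in VE brains, 8.20 to 8.44 in ob/ob vehicle brains and 8.43 to 9.10 in wild-type brains. Prox1, a marker of dentate granule cells, had 10.30, 9.46 and 9.87 in VE brains, 11.0, 11.43 and 10.84 in ob/ob vehicle brains, and 10.88, 12.06 and 11.79 in wild-type brains.

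The striatal list went the other way, with 7 of 9 genes above 0 and a median of 0.78. Its mean was 8.54 to 10.01 in VE brains, 8.42 to 9.0 in ob/ob vehicle brains and 8.56 to 8.61 in wild-type brains. Rgs9, a regulator of dopamine receptor signals, had 11.73, 9.74 and 11.77 in VE brains, 10.09, 8.64 and 9.32 in ob/ob vehicle brains, and 9.55, 9.51 and 9.04 in wild-type brains. Its change from ob/ob vehicle was 1.73 (limma adjusted p 0.123). The thalamic list had 7 of 9 genes above 0 with a median of 0.58, and the lists of cortical projection neurons and of neurons at large had medians of 0.14 and 0.19. Of the marker genes measured 0 were at a signal of 0, which says nothing about detection, since the filter on detection was left out. The part that the regional make-up of the samples has in the lower signals of Nr4a2, Nr4a3 and Arc was not tested.

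Against wild type, a larger share of these markers than of all probe sets was lower in both ob/ob groups, though the striatal list had a median of 0.87 in VE and 0.09 in ob/ob vehicle brains. Probe sets above the median level also had lower medians, at -0.23 in VE and -0.21 in ob/ob vehicle brains, than all probe sets, at -0.07 and 0.02. Many of the markers were above that level, and the shares below are set beside all probe sets only. In VE against wild type 0 of the 109 were called by limma, with 43 lower (39.4%) and 7 higher (6.42%) at unadjusted p under 0.05, beside 9.21% lower and 2.98% higher of all probe sets. The medians in that comparison were -1.03 for oligodendrocytes, -1.04 for astrocytes, -0.83 for hippocampus, -0.62 for microglia, -0.53 for neurons at large and -0.48 for choroid plexus. They were -0.72 for cortical projection neurons, -0.32 for cerebellum and -0.17 for thalamus. For endothelium and for the claustrum, subiculum and layer 6b list, where Nr4a2 is a marker, the median was 0.02 each. These medians stand beside the called falls of Nr4a2 and Nr4a3, and beside -0.46 for the 10 genes. In ob/ob vehicle against wild type 11 of the 109 were called, all lower (10.1%), beside 0.73% of all probe sets called lower. At unadjusted p under 0.05, 45 were lower (41.3%) and 1 higher (0.917%), beside 10.2% lower and 9.88% higher of all probe sets. There the medians were -1.17 for oligodendrocytes, -0.84 for choroid plexus, -0.66 for neurons at large, -0.61 for astrocytes, -0.61 for microglia and -0.49 for hippocampus, beside 0.03 for the 10 genes. They were -0.67 for cortical projection neurons, -0.65 for thalamus, -0.37 for endothelium and -0.19 for cerebellum. The claustrum, subiculum and layer 6b list was at 0.08. The part of these marker differences in the calls of Nr4a2, Nr4a3, Klf10, Rgs2, Crtc1 and Rara was not tested.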

How the data were processed

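RNA (100 ng) from 9 mice had been hybridized for 16 hours to Clariom S arrays, per the design text. The tissue is brain per the labels and WAT per the design text, and the labels were followed. The deposited values are log2 signals, which the authors made with SST-RMA in Transcriptome Analysis Console 4.0.2, per the design text. The filters on detection and area under the curve that the design text names were left out. Symbols came from the platform annotation.

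Differences came from limma 3.58.1 in R 4.3.3 on those values as deposited. The model held 1 mean for each group, with 6 residual degrees of freedom and 7.03 added by eBayes, and p-values were adjusted by Benjamini-Hochberg over 22206 probe sets. Calls were made at adjusted p under 0.05. On simulated data with 200 changed probe sets of 22206, changes of 0.5, 1 and 2 log2 units were recovered in 0%, 16.5% and 93% for VE against ob/ob vehicle, in 0%, 20.5% and 91.5% for ob/ob vehicle against wild type, and in 0%, 9.5% and 96% for VE against wild type. The number of arrays limits the precision.

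The 10 genes, the 18 other lists and the rules were chosen with earlier results of these data known. Genes named from the other lists were those called in a comparison, otherwise the 2 with the smallest p for VE against ob/ob vehicle; a few named beside them were picked as relatives or after their values were seen. Likeness was Pearson's r with Nr4a2 or with the mean of the 10 genes, over genes with a mean above the median and an SD of at least 0.3. Same-numbered arrays of different groups had correlations of deviations from the group means between -0.0323 and 0.331, and unlike-numbered arrays between -0.289 and 0.111. The highest was that of array 1 of ob/ob vehicle with array 1 of VE. No label names pairs, so the numbers were not taken as pairs.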

Additional observations from a re-analysis of the deposited data

How the results depend on the processing

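Of 2877 recomputed gene changes under the 19 alternatives, 2600 stayed on their side of the threshold or, for the 10 genes in VE against ob/ob vehicle, moved by less than the SD between arrays, and no called change turned its sign. Members called for VE against ob/ob vehicle numbered 1 with the deposited values. That contrast helped to choose the genes, so nothing is read from its counts of members under any setting. The counts over all probe sets are given further below. They numbered 2 with quantile normalization, with or without VE array 2, and among probe sets above the median level, 3 with cyclic loess, 4 with array weights and with adjusted p under 0.1, 6 by the rule of the design text (unadjusted p under 0.05 and a fold over 1.1), and 0 among probe sets with 1 symbol and in a fit of the 2 groups alone. Leaving out each array gave 0 to 2. Members called for VE against wild type numbered 2, and they were 4 with array weights and with the rule of the design text, and 0 with quantile normalization (with or without VE array 2), array centring, cyclic loess, trend and robust moderation, the 2 groups alone and the replicate block. Leaving out each array gave 0 to 2. For ob/ob vehicle against wild type the members called were 0 under all settings run (0 at unadjusted p under 0.05 by limma with the deposited values).

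Probe sets called for VE against ob/ob vehicle numbered 108, and 324 with quantile normalization, 71 centred, 376 with cyclic loess, 418 with quantile normalization without VE array 2, 225 with trend and robust moderation, 3307 with array weights, 180 above the median level, 0 with 1 symbol, 0 with the 2 groups alone, 2962 by the rule of the design text and 433 at adjusted p under 0.1. Leaving out each array gave 0 to 403. For ob/ob vehicle against wild type 281 were called, and 631 with quantile normalization, 614 centred, 808 with cyclic loess, 1970 with quantile normalization without VE array 2, 3601 with array weights, 2626 with the 2 groups alone, 4457 by the rule of the design text and 1204 at adjusted p under 0.1. Leaving out each array gave 0 to 2975. For VE against wild type 22 were called, and 0 with quantile normalization, 7 centred, 0 with cyclic loess, 10 with trend and robust moderation, 3286 with array weights, 49 above the median level, 0 with the 2 groups alone, 2707 by the rule of the design text and 109 at adjusted p under 0.1. Leaving out each array gave 0 to 158. The causes were not tested.

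The higher and lower calls split 119 and 162 for ob/ob vehicle against wild type, and 381 and 250 with quantile normalization, 166 and 448 centred, 485 and 323 with cyclic loess and 1047 and 923 with quantile normalization without VE array 2. The last setting split the calls of VE against ob/ob vehicle as 117 and 301, and those of VE against wild type as 7 and 12. Centring moved the median of all probe sets for VE against ob/ob vehicle to 0.06 in place of -0.07, and 9 of the 10 genes were still below 0. With the replicate number as a block, 144 probe sets were called for VE against ob/ob vehicle, 251 for ob/ob vehicle against wild type and 2 for VE against wild type. Not every array correlated best with its own number, and the block is no evidence of pairing. With 3 arrays a group, simulated differences of 0.5 log2 units were recovered in 0%, so differences of that size were not detectable.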
